A study of Bos taurus with 6 samples.

Results

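The genes described here are those of the first steps of insulin signaling, from the insulin receptor to AKT. They were INSR, IRS1, IRS2, PIK3R1, PIK3CA, PIK3CB, AKT1 and AKT2, chosen by name for their place in the pathway, and all 8 were listed by symbol among the 23475 genes of the deposited table. RNA was sequenced from bovine preadipocytes (Bos taurus), the precursor cells of adipocytes, which had been isolated from subcutaneous fat of calves. The 3 libraries of the agomir group came from cells transfected for 48 h with bta-miR-484 agomir, a stabilized RNA duplex that delivers extra copies of the miRNA, and the 3 libraries of the control group from cells transfected for 48 h with agomir NC, a negative control of the same kind. Cells of both groups were grown in DMEM/high glucose medium with fetal bovine serum and Pen-strep. The comparison asks which mRNA levels differ when bta-miR-484 is raised. The origin of the 3 samples within each group, separate calves or separate cultures, is not stated, so p-values measure only the spread between these samples, which may be technical. Values are FPKM, fragment numbers scaled by transcript length and by the library's mapped total, so levels of different genes can be set side by side. Depth in reads is unknown, because FPKM holds no read numbers.

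Insulin binds its receptor, a tyrosine kinase at the cell surface, which phosphorylates the IRS adaptor proteins. Phosphorylated IRS proteins recruit PI3K, a dimer of a regulatory and a catalytic subunit, and the lipid that PI3K makes at the membrane brings AKT to the kinases that activate it. In fat cells this pathway drives glucose uptake, lipid storage and the restraint of lipolysis, and in preadipocytes it is needed for differentiation. The libraries measured mRNA, and phosphorylation, protein level and kinase activity were not measured. No value for the miRNA itself was used here.

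The labels call the cells adipocytes, and the markers of mature adipocytes were low. LPL was the most abundant of the 9 listed, at a mean of 3.73 FPKM over the 6 libraries, while ADIPOQ was at 0.140 FPKM and LEP was listed at 0 in 4 of 6 libraries. The 9 genes summed to 11.6, 12.4 and 11.5 FPKM in the agomir libraries and to 12.6, 11.1 and 11.1 FPKM in the agomir NC libraries. Genes of preadipocytes and fibroblasts were abundant, led by COL1A1 at 5979 FPKM, with PDGFRA at 166 FPKM, although on the same list DLK1 was listed at 0 in every library and CD34 was at a mean of 0.481 FPKM. Their 10 genes, with COL1A1, DCN and LUM the highest, summed to 10495 ± 314 FPKM with the agomir, against 10570 ± 502 FPKM in controls (SD, n = 3 each). The defining markers of other cell types were near 0, with PTPRC of leukocytes at 0.0573, PECAM1 of endothelium at 0.0970 and MYH11 of smooth muscle at 0.359 FPKM. The most abundant genes on the lists of those cell types were CD14 at 6.27, VWF at 3.39 and ACTA2 at 207 FPKM. Those lists summed to 7.35 ± 0.585 FPKM with the agomir and 7.44 ± 0.273 in controls for leukocytes, 4.13 ± 0.383 and 4.25 ± 0.265 for endothelium, and 219 ± 5.21 and 225 ± 15.2 for smooth muscle and pericytes (SD, n = 3 each). The 3 epithelial markers summed to 0.169 ± 0.0519 and 0.310 ± 0.0698 FPKM (SD, n = 3 each), groups that did not overlap, with KRT5 listed at 0, and MYOD1 and MYOG of skeletal muscle were listed at 0 in every library.

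Across the libraries the 8 genes spanned a 169-fold range. AKT1 was highest, at a mean of 79.6 FPKM over the 6 libraries, followed by PIK3R1 at 25.3, AKT2 at 23.9, PIK3CA at 8.50, IRS1 at 3.88, IRS2 at 2.76, INSR at 2.61 and PIK3CB at 0.472 FPKM. The receptor and its substrates were thus at lower mRNA levels than PIK3R1, PIK3CA and both AKT genes in every library. Between neighbors in this order the ranges over the 6 libraries did not overlap, except for PIK3R1 with AKT2 and for IRS2 with INSR. PIK3R1 was above AKT2 in 6 of 6 libraries, by a ratio of means of 1.06. IRS2 was above INSR in 3 of 6, so the order of IRS2 and INSR did not hold beyond the spread between libraries.

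**Figure D1:**
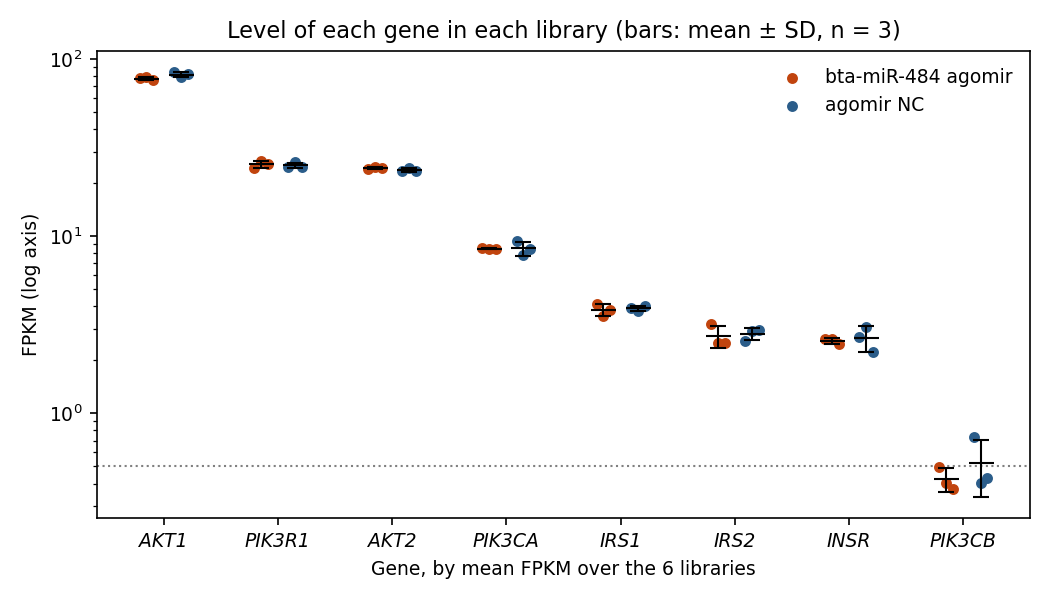
FPKM on a log axis for INSR, IRS1, IRS2, PIK3R1, PIK3CA, PIK3CB, AKT1 and AKT2 in each library, with bars for the mean and SD of the 3 agomir and the 3 agomir NC libraries. The dotted line marks 0.5 FPKM, and the mean of PIK3CB lies below it with the agomir and just above it with the agomir NC, while the groups overlap for all 8 genes.

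To compare the groups, genes with mean FPKM of 0.5 or more entered the test by limma on the scale of log2(FPKM + 0.5), 0.5 being a pseudocount. This left 12422 genes, and 7 of the 8 passed, the exception being PIK3CB. None of these 7 had an unadjusted p under 0.05 in limma, against 10.9% of all genes tested (1359 genes), made up of 6.63% with higher and 4.31% with lower values in the agomir group. This split, 824 higher and 535 lower, depended on the scaling, with 673 higher and 688 lower under median-ratio scaling and 690 and 633 under quantile normalization. With Benjamini-Hochberg adjustment across the 12422 genes no member was under 0.05 either, where 1 gene of them, or 0.00805%, was. The agomir and agomir NC libraries overlapped for all 8 genes, whereas in 17.2% of the genes tested they did not. Of the 7 log2 fold changes, 2 were positive and 5 negative, with a median of -0.026, and the median over all genes tested was 0.013. A p above the threshold does not show that levels were the same, so the 95% interval of each difference is given.

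INSR encodes the insulin receptor. It was at 2.61, 2.63 and 2.46 FPKM in agomir replicates 1, 2 and 3, and at 2.68, 3.07 and 2.21 FPKM in agomir NC replicates 1, 2 and 3. The agomir libraries lay close together, inside the range of the control libraries, of which replicate 2 was the highest and replicate 3 the lowest. The agomir mean was 2.57 ± 0.0973 FPKM and the control mean 2.65 ± 0.434 FPKM (SD, n = 3 each), so the SD was 3.79% of the mean with the agomir and 16.3% with the agomir NC. On the log2(FPKM + 0.5) scale, which understates differences of low genes, the fold change was -0.031 (standard error, SE, 0.12, 95% interval -0.30 to 0.23, adjusted p = 0.952 in limma). In folds this interval runs from 0.814 to 1.18. Fewer cells with a transcript and less of it per cell cannot be told apart in such bulk samples.

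IGF1R, the receptor for insulin-like growth factors and the closest relative of INSR, was the most abundant of INSR, IGF1R and INSRR. It was at 27.1, 28.5 and 26.3 FPKM after agomir transfection, against 28.6, 27.8 and 24.8 FPKM in the control libraries, and the groups overlapped. INSR made up 8.75% of the summed FPKM of INSR and IGF1R over the 6 libraries, between 8.17% and 9.94% in any of them. Its share was 8.60% ± 0.186 with the agomir and 8.90% ± 0.928 with the agomir NC (SD, n = 3 each), a difference of -0.294 percentage points. This gave p = 0.8 in an exact two-sided permutation test, where 3 libraries against 3 cannot go below 0.1. INSRR, the third gene of this receptor family, was listed at 0.0168 FPKM or less in every library.

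IRS1 and IRS2 encode the insulin receptor substrates, the docking proteins between receptor and PI3K. IRS1 was at 4.14, 3.55 and 3.83 FPKM in agomir replicates 1, 2 and 3, and at 3.93, 3.77 and 4.04 FPKM in agomir NC replicates 1, 2 and 3. Both the highest and the lowest value belonged to the agomir group, so the control values lay within it. Mean FPKM was 3.84 ± 0.296 with the agomir and 3.91 ± 0.133 in controls (SD, n = 3 each). Its log2 fold change was -0.026 (SE 0.088, 95% interval -0.22 to 0.17, adjusted p = 0.947 in limma).

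IRS2 was at 3.17, 2.50 and 2.49 FPKM after agomir transfection, against 2.55, 2.91 and 2.94 FPKM in the control libraries. Agomir replicate 1 was above all control libraries and the other agomir libraries were below all of them. Averages were 2.72 ± 0.390 FPKM in the agomir group and 2.80 ± 0.216 FPKM in the control group (SD, n = 3 each), with a log2 fold change of -0.043 (SE 0.11, 95% interval -0.30 to 0.21, adjusted p = 0.927 in limma). Without agomir replicate 1 the log2 fold change was -0.14, with an unadjusted p above 0.05 in limma. It turned to 0.0053 without agomir replicate 2 and to 0.0070 without agomir replicate 3.

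IRS1 took 58.7% ± 1.99 of the summed FPKM of IRS1 and IRS2 with the agomir and 58.3% ± 2.14 with the agomir NC (SD, n = 3 each; exact two-sided permutation test, p = 0.7). The split between the substrates thus differed by less than the spread between libraries. IRS4, another member of the family, was listed at 0 FPKM in every library. SHC1, an adaptor that links the receptor to the Ras pathway, was the most abundant of the substrates and adaptors, at a mean of 73.1 FPKM, with a log2 fold change of 0.0032 (95% interval -0.097 to 0.10). Among the 8 substrates and adaptors tested, the groups did not overlap in 1, or 12.5% beside 17.2% of all genes tested. This was CBL, higher with the agomir and named after its values were seen. Its log2 fold change was 0.11 (95% interval -0.075 to 0.29).

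PIK3R1 encodes the regulatory subunit p85 alpha, which binds phosphorylated IRS proteins and holds the catalytic subunit. It was at 24.2, 26.6 and 25.7 FPKM in agomir replicates 1, 2 and 3, and at 24.5, 26.02 and 24.6 FPKM in agomir NC replicates 1, 2 and 3. The values of both groups were interleaved, with the highest and the lowest among the agomir libraries. The agomir mean was 25.5 ± 1.19 FPKM and the control mean 25.1 ± 0.840 FPKM (SD, n = 3 each). The resulting log2 fold change was 0.024 (SE 0.055, 95% interval -0.099 to 0.15, adjusted p = 0.913 in limma), an interval in folds of 0.934 to 1.11.

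PIK3CA encodes the catalytic subunit p110 alpha, the form that acts mainly downstream of the insulin receptor. It was at 8.52, 8.45 and 8.47 FPKM after agomir transfection, against 9.35, 7.78 and 8.43 FPKM in the control libraries. The agomir libraries were nearly level, with an SD of 0.441% of the mean against 9.28% in the control libraries, which lay on both sides of them. Mean FPKM was 8.48 ± 0.0374 with the agomir and 8.52 ± 0.790 in controls (SD, n = 3 each), with a log2 fold change of -0.0025 (SE 0.077, 95% interval -0.17 to 0.17, adjusted p = 0.994 in limma). In the RefSeq annotation of ARS-UCD2.0 the span of PIK3CA overlaps that of KCNMB3, a potassium channel subunit gene named here after its values were seen. KCNMB3 was at 0.548, 0.734 and 0.985 FPKM after agomir transfection, against 0.279, 0.405 and 0.282 FPKM in the control libraries. Whether the libraries keep the strand is not stated, so how far reads of these overlapping genes were kept apart is unknown and was not tested.

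PIK3CB encodes the catalytic subunit p110 beta. It was at 0.497, 0.401 and 0.370 FPKM in agomir replicates 1, 2 and 3, and at 0.732, 0.401 and 0.429 FPKM in agomir NC replicates 1, 2 and 3. Control replicate 1 stood above the other 5 libraries, and the rest of the groups overlapped. Averages were 0.423 ± 0.0661 FPKM in the agomir group and 0.521 ± 0.183 FPKM in the control group (SD, n = 3 each; exact two-sided permutation test, p = 0.5). In a fit of 18467 genes without the filter the log2 fold change was -0.13 (95% interval -0.48 to 0.21, adjusted p = 0.817 in limma), a wide interval for a gene near the pseudocount. Without control replicate 1, left out after the data were seen, it was 0.0096. Its annotated span also overlaps pseudogenes, that of INSR a long noncoding RNA and that of IRS1 a miRNA gene, and whether reads were shared with them was not tested.

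Among the class I PI3K genes the alpha forms prevailed. PIK3CA made up 93.9% of the summed FPKM of PIK3CA, PIK3CB and PIK3CD over the 6 libraries, PIK3CB 5.15% and PIK3CD 0.988%. PIK3R1 made up 54.6% of the regulatory genes, PIK3R2 33.4% and PIK3R3 11.96%. The share of PIK3CA was 94.3% ± 0.652 with the agomir and 93.4% ± 1.92 with the agomir NC (SD, n = 3 each; exact two-sided permutation test, p = 0.6). That of PIK3R1 was 54.9% ± 1.79 and 54.4% ± 0.428 (SD, n = 3 each; exact two-sided permutation test, p = 0.7), and the groups overlapped for both shares. Adjusted over the 5 shares computed in the pathway, the permutation p was 0.8 for each share given here. Regulatory transcripts outnumbered catalytic ones per length by a ratio of 5.17 ± 0.130 with the agomir and 5.10 ± 0.746 with the agomir NC (SD, n = 3 each), a ratio chosen after values were seen and not tested. PIK3CG and the regulatory genes PIK3R5 and PIK3R6, which belong to the PI3K form activated by G protein-coupled receptors, were at or near 0, with PIK3R6 listed at 0 in every library.

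AKT1 encodes the AKT kinase that is found in most tissues and acts in growth and survival. It was at 77.7, 78.7 and 76.2 FPKM in agomir replicates 1, 2 and 3, and at 84.0, 78.6 and 82.4 FPKM in agomir NC replicates 1, 2 and 3. Control replicates 1 and 3 were above all agomir libraries, while control replicate 2 was just below agomir replicate 2, so the groups overlapped at that pair. The agomir mean was 77.5 ± 1.24 FPKM and the control mean 81.6 ± 2.76 FPKM (SD, n = 3 each). The resulting log2 fold change was -0.074 (SE 0.042, 95% interval -0.17 to 0.021, adjusted p = 0.566 in limma), the lowest p among the 7 genes tested, and the interval in folds was 0.890 to 1.01. Without agomir NC replicate 2 the log2 fold change was -0.10 and the unadjusted p under 0.05, with an adjusted p of 0.520 in limma. Over the 15 alternatives the adjusted p ranged from 0.457 to 0.757.

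AKT2 encodes the AKT kinase most tied to insulin-stimulated glucose uptake in fat and muscle. It was at 23.8, 24.5 and 24.3 FPKM after agomir transfection, against 23.3, 24.3 and 23.4 FPKM in the control libraries. Control replicate 2 was just above agomir replicate 3 and above agomir replicate 1, and the other control libraries lay below all agomir libraries. Mean FPKM was 24.2 ± 0.375 with the agomir and 23.7 ± 0.572 in controls (SD, n = 3 each), with a log2 fold change of 0.031 (SE 0.048, 95% interval -0.077 to 0.14, adjusted p = 0.858 in limma). The intervals of AKT1 and AKT2 were the narrowest of the 7 genes together with that of PIK3R1, and these are the 3 most abundant.

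The ratio of AKT1 to AKT2 was 3.27, 3.21 and 3.14 in the agomir libraries and 3.61, 3.23 and 3.52 in the agomir NC libraries, a ratio chosen after values were seen and not tested. Control replicate 2 was again the library that lay among the agomir values. On average AKT1 was at 3.20 ± 0.0656 times the FPKM of AKT2 with the agomir and at 3.45 ± 0.197 times in controls (SD, n = 3 each).

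The wider pathway was read from a list of 93 genes in 11 roles, of which 92 were found by symbol, the exception being FBXO32, and 77 passed the filter. Of these 77, 8 were higher and 2 lower with the agomir at an unadjusted p under 0.05 in limma, or 13.0% in all beside 10.9% of all genes tested, and none was under an adjusted p of 0.05. Median-ratio scaling gave 7 higher and 3 lower, and quantile normalization 6 and 3, beside 11.0% and 10.7% of all genes tested in either direction. The groups did not overlap in 15 of the 77 genes, or 19.5%, beside 17.2% of all genes tested. With 43 positive and 34 negative log2 fold changes the median was 0.020, against 0.013 over all genes. Under median-ratio scaling these medians were 0.0063 and -0.00071, and under quantile normalization 0.012 and 0.0028. These shares are near those of all genes, and they do not set the pathway apart. The count of 10 was 3 without agomir replicate 2, where 8.09% of all genes tested were called, and 4 without agomir NC replicate 3, where 9.01% were. It was 6 when either agomir replicate 3 or agomir NC replicate 2 was dropped, beside 8.86% and 9.57% of all genes tested.

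**Figure D2:**
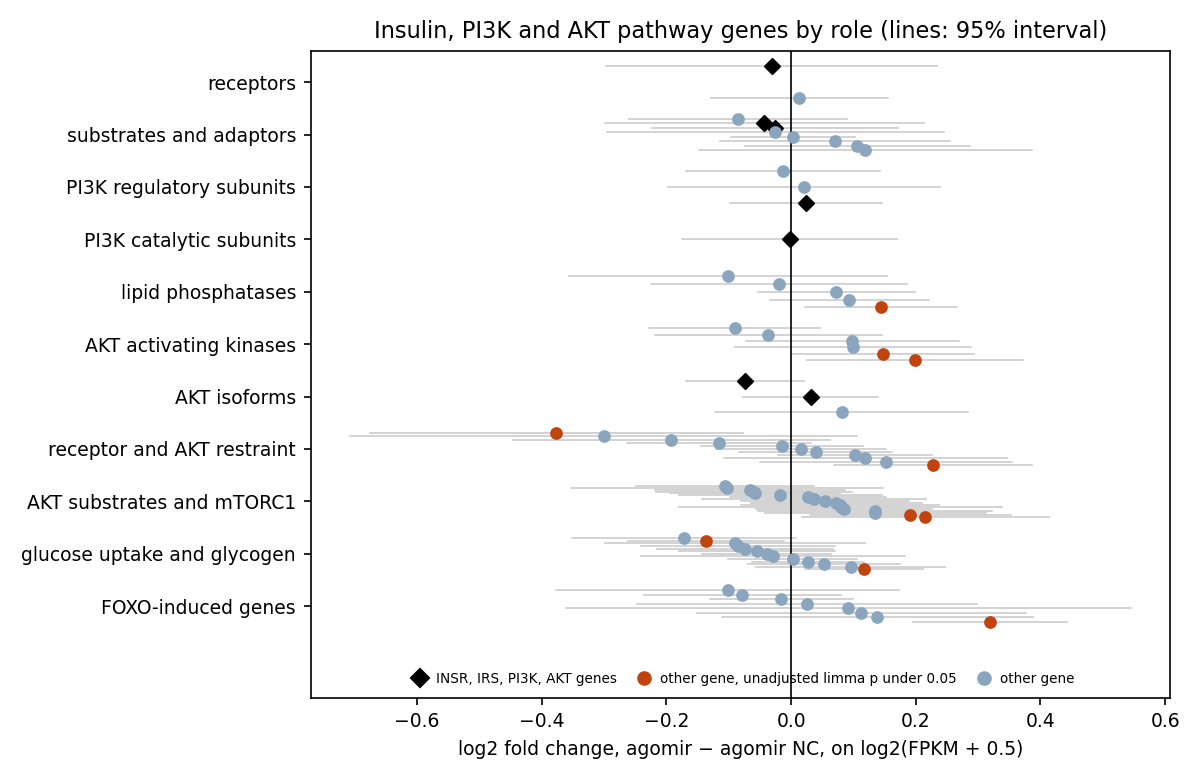
Log2 fold change of agomir over agomir NC on the log2(FPKM + 0.5) scale for the 77 pathway genes tested, by role, with lines for 95% intervals. Black diamonds are the 7 genes from INSR to AKT2 that were tested, whose intervals all include 0, and red points are the 10 other genes with an unadjusted p under 0.05 in limma.

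Among 5 genes of lipid phosphatases, which act on the product of PI3K or on related lipids, INPPL1 was higher at an unadjusted p under 0.05, or 20.0% beside 10.9% of all genes tested. INPPL1, which encodes the lipid phosphatase SHIP2, was at 33.6, 34.3 and 33.6 FPKM after agomir transfection, against 32.6, 30.2 and 28.9 FPKM in the control libraries. Every agomir library was above every control library, with a log2 fold change of 0.14 (SE 0.054, adjusted p = 0.395 in limma). The other genes of this role that were tested had no unadjusted p under 0.05.

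Among 6 genes of the kinases that activate AKT, PDPK1 and MTOR were higher at an unadjusted p under 0.05, or 33.3% beside 10.9% of all genes tested. PDPK1 encodes the kinase that phosphorylates the activation loop of AKT, and it was at 8.46, 9.63 and 8.96 FPKM after agomir transfection, against 8.36, 7.71 and 7.32 FPKM in the control libraries. MTOR encodes the kinase of the mTORC1 and mTORC2 complexes, the latter of which phosphorylates AKT, and it was at 10.8, 11.7 and 11.4 FPKM against 10.3, 10.5 and 9.68 FPKM. For both genes the groups did not overlap, with agomir replicate 2 the highest library. The log2 fold changes were 0.20 for PDPK1 and 0.15 for MTOR, with adjusted p-values of 0.403 and 0.447 in limma. RICTOR, which encodes a subunit of mTORC2, named after its values were seen, also had separate groups, at a log2 fold change of 0.098 (95% interval -0.073 to 0.27). The groups thus did not overlap in 3 of the 6 genes, or 50% beside 17.2% of all genes tested. MAPKAP1, another subunit gene of mTORC2 and the most abundant of this role at a mean of 18.3 FPKM, had a log2 fold change of -0.036 (95% interval -0.22 to 0.15).

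Of 11 genes that restrain the receptor, PI3K or AKT, 1 was higher and 1 lower at an unadjusted p under 0.05, or 18.2% beside 10.9% of all genes tested, and 6 log2 fold changes were positive and 5 negative. PTPRF encodes LAR, a receptor-type tyrosine phosphatase that can act on the insulin receptor, and it was at 16.0, 18.2 and 17.2 FPKM after agomir transfection, against 15.4, 14.9 and 13.5 FPKM in the control libraries. PIK3IP1 encodes a membrane protein that inhibits the PI3K catalytic subunit, and it was at 0.936, 0.841 and 1.00 FPKM against 1.14, 1.52 and 1.41 FPKM. The groups were separate for both, higher with the agomir for PTPRF (log2 fold change 0.23, adjusted p = 0.333 in limma) and lower for PIK3IP1 (log2 fold change -0.38, adjusted p = 0.373 in limma). At a mean of 1.14 FPKM, the size for PIK3IP1 depended on the pseudocount, with -0.50 at 0.1 and -0.29 at 1. PTPN2, another tyrosine phosphatase gene and the most abundant here at a mean of 25.0 FPKM, had a log2 fold change of 0.10 (95% interval -0.021 to 0.23). GRB14 was listed at 0 in every library.

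Among 17 genes of AKT substrates and mTORC1 signaling, TSC1 and RPS6KB1 were higher at an unadjusted p under 0.05, or 11.8% beside 10.9% of all genes tested. TSC1, part of the complex that AKT inhibits and that holds back mTORC1, was at 13.7, 14.5 and 13.5 FPKM after agomir transfection, against 13.3, 11.8 and 11.2 FPKM in the control libraries. RPS6KB1, which encodes the S6 kinase downstream of mTORC1, was at 15.3, 13.8 and 13.8 FPKM against 13.0, 10.6 and 13.3 FPKM. In both the lowest agomir library was above the highest control library by a small margin. The log2 fold changes were 0.19 and 0.22, with adjusted p-values of 0.397 and 0.423 in limma. Without agomir NC replicate 2, the lowest library of RPS6KB1, its log2 fold change was 0.12. TBC1D1, which encodes a regulator of Rab GTPases and was named after its values were seen, also had separate groups, lower with the agomir, at a log2 fold change of -0.11 (95% interval -0.25 to 0.036). EIF4EBP1, the translation repressor gene that was the most abundant of the role at a mean of 54.3 FPKM, had a log2 fold change of -0.059 (95% interval -0.22 to 0.098).

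Of 13 genes of glucose uptake and glycogen, HK1 was higher and GYS1 lower at an unadjusted p under 0.05, or 15.4% beside 10.9% of all genes tested. HK1, a hexokinase gene whose product traps glucose in the cell, was at 79.0, 83.4 and 83.0 FPKM after agomir transfection, against 77.2, 74.6 and 74.3 FPKM in the control libraries. GYS1, the glycogen synthase gene, was at 17.3, 17.3 and 17.4 FPKM against 18.3, 20.2 and 19.0 FPKM. Neither gene had overlapping groups, and the log2 fold changes were 0.12 and -0.14, with adjusted p-values of 0.378 and 0.418 in limma. The groups did not overlap in 4 of the 13, or 30.8% beside 17.2% of all genes tested. The others, named after their values were seen, were PPP1R3C and PPP1R3D, which encode subunits that bring a protein phosphatase to glycogen. Each was lower in all agomir than in all control libraries, with log2 fold changes of -0.055 (95% interval -0.18 to 0.070) for PPP1R3C and -0.17 (95% interval -0.35 to 0.0085) for PPP1R3D. RHOQ, a small GTPase gene of the glucose transport route, was the most abundant of the role at a mean of 83.8 FPKM, with a log2 fold change of 0.0025 (95% interval -0.10 to 0.11). SLC2A4, the insulin-responsive glucose transporter gene, was at 0.108 FPKM or less in every library and was not tested.

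TXNIP, the most abundant of the genes that FOXO factors induce when AKT is inactive, had the largest positive log2 fold change among the 10 genes. It encodes a thioredoxin-binding protein that also limits glucose uptake. It was at 75.5, 79.9 and 74.1 FPKM after agomir transfection, against 59.9, 58.2 and 65.8 FPKM in the control libraries, with every agomir library above every control library. Averages were 76.5 ± 3.03 FPKM in the agomir group and 61.3 ± 3.97 FPKM in the control group (SD, n = 3 each), or on the log2 scale a fold change of 0.32 (SE 0.055, 95% interval 0.20 to 0.44, adjusted p = 0.122 in limma). Over the alternatives its adjusted p ranged from 0.113 to 0.482 in limma. The other 7 genes of this role that were tested had no unadjusted p under 0.05, so the share was 12.5% beside 10.9% of all genes tested.

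**Figure D3:**
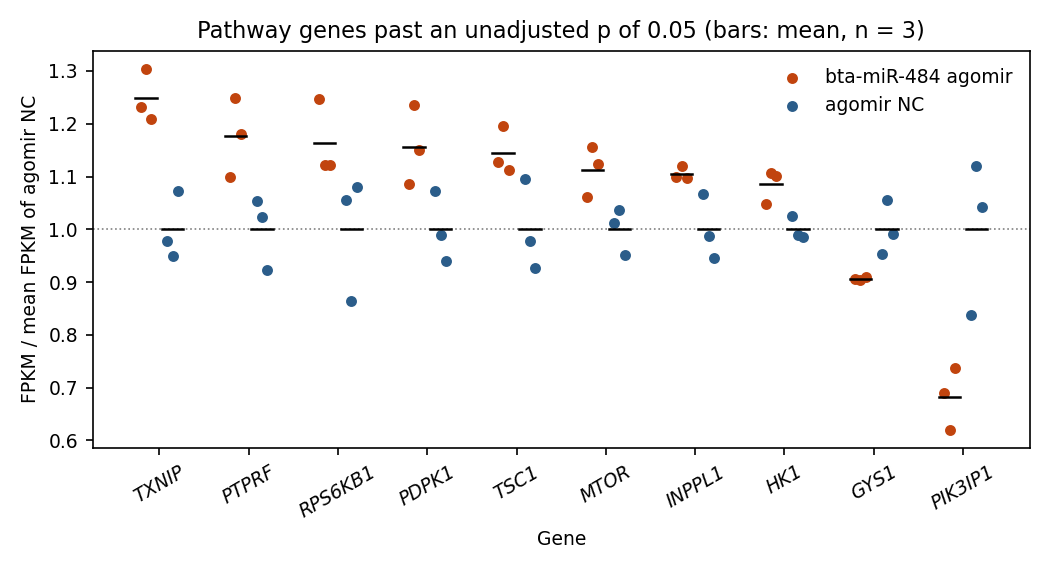
FPKM of each library divided by the mean FPKM of the agomir NC libraries, for the 10 pathway genes with an unadjusted p under 0.05 in limma, with bars for the group means (n = 3). The 8 genes from TXNIP to HK1 lie higher and GYS1 and PIK3IP1 lower with the agomir, and for all 10 genes the groups are separate. Choice by p in these same libraries favors separate groups, and none of the 10 has an adjusted p under 0.05.

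Of these 10 genes, 3 overlap another protein-coding gene in the RefSeq annotation of ARS-UCD2.0, namely INPPL1 with PHOX2A, MTOR with ANGPTL7 and HK1 with HKDC1 and TACR2. HKDC1 was listed at 0 in every library, PHOX2A and ANGPTL7 at 0 in 3 or more, and TACR2 was at 0.484 FPKM or less, and a share of their reads in the values above was not tested. In the alternatives, TXNIP and PTPRF had an unadjusted p under 0.05 in 15 of 15 settings, HK1, TSC1 and PIK3IP1 in 12, PDPK1 in 11, INPPL1 and RPS6KB1 in 10, and MTOR and GYS1 in 8. Every alternative used the libraries by which the 10 genes were chosen, so these counts are not independent support. Beside these genes, 4 of 19 cell type markers tested had an unadjusted p under 0.05 in limma, or 21.1% beside 10.9% of all genes tested. NT5E (log2 fold change -0.25), DCN (-0.12) and FABP4 (-0.49) were lower with the agomir and PPARG (0.23) was higher. The part of such marker differences in the pathway values was not tested.

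For INSR, IRS1 and IRS2, the genes with the most similar pattern over the 6 libraries were sought among 11251 genes with a symbol. PPL (Pearson r = 0.985) and USP48 (r = 0.978) were nearest to INSR, with control replicate 2 highest and control replicate 3 lowest in each. DHDH (r = 0.996) and MRGPRF (r = 0.986) were nearest to IRS1, and agomir replicate 1 was highest and agomir replicate 2 lowest for all of them. GPSM1 (r = 0.997) and RPL17 (r = 0.993) were nearest to IRS2. RPL17 was at 632, 231 and 260 FPKM after agomir transfection, against 271, 483.9 and 498 FPKM in the control libraries. As for IRS2, agomir replicate 1 was the highest and the other agomir libraries the lowest, over a wider range. These values describe 6 shared libraries, and the best of so many genes over so few points is high by selection.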

How the data were processed

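Total RNA of 6 samples was sequenced, 3 per group. The authors deposited FPKM values per gene, made per the labels with fastp, HISAT2 and StringTie on ARS-UCD1.2. The sources used here give no versions, annotation or strand. Ratios of low FPKM between libraries showed no steps of whole reads (2158 genes, no more than 7 in any log2 bin of width 0.002), so depth is unknown. Genes whose mean FPKM reached 0.5 were analysed as log2(FPKM + 0.5) by limma 3.58.1 (R 4.3.3), with a two-sided moderated test, a variance trend and no term for replicate number. Benjamini-Hochberg adjustment covered 12422 genes. Shares were compared by the exact permutation test over 20 labelings. The model was tested on simulated data. The members and lists were chosen with earlier results of these data known. Genes were named by rule: every member, pathway genes with an unadjusted p under 0.05, the most abundant gene of each role, and the best correlated genes. Some results under this rule, and a share computed, are not reported here. Family relatives and genes at or near 0 were named after their values were seen. Alternatives changed the pseudocount (0.1 or 1), the filter (none, or a mean of 1), the scaling (median ratio or quantile), the variance trend (off), library weights (limma's array weights) and the model (replicate block), or dropped a library. Overlaps of gene spans came from RefSeq on ARS-UCD2.0, matched by symbol.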

Additional observations from a re-analysis of the deposited data

How the results depend on the processing

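Of all genes tested, 1 was under an adjusted p of 0.05 as reported. The count became 0 when the filter was dropped, 0 when the variance trend was off and 0 under the replicate block, and it was 0 to 2 with 1 library left out. At these counts of 0, limma's unadjusted p was under 0.05 for 8.69%, 10.1% and 10.1% of genes. Members with an unadjusted p under 0.05 numbered 0 as reported and 0 to 1 with 1 library left out. The 1 was AKT1 without agomir NC replicate 2, where 9.57% of all genes tested were called. Pathway genes numbered 10 of 77 as reported and 3 to 11 with 1 library left out, where fewer libraries entered the fit. The share of all genes tested was then 8.09% to 11.5%. With the replicate block the pathway genes numbered 8, all among the 10, and without the variance trend 7, of which 6 were among the 10. In each of these 2 settings 10.1% of all genes tested were called. Of 105 values of the 7 members tested under the alternatives, 99 kept their direction and 6 turned, each with a library left out. The log2 fold change then ranged from -0.14 to 0.064 for INSR, from -0.075 to 0.023 for IRS1, from -0.14 to 0.0070 for IRS2, from -0.0065 to 0.059 for PIK3R1 and from -0.063 to 0.063 for PIK3CA. The library that turned it was agomir NC replicate 2 for INSR, agomir replicate 2 for IRS1 and PIK3R1, agomir replicate 2 or 3 for IRS2, and agomir NC replicate 1 for PIK3CA. The cause was not tested. In the fit without a filter, PIK3CB ranged from -0.22 to 0.0096 with a library left out, an alternative chosen after seeing the data. The pathway median of 0.020 was 0.0086 to 0.031 with a library left out. Of the 5 shares computed, the differences of the 4 given here turned with a library left out, in percentage points from -0.294 to 0.229 for INSR (without agomir NC replicate 2), from 0.373 to -0.607 and -0.569 for IRS1 (without agomir replicate 3 and agomir NC replicate 2), from 0.487 to -0.395 for PIK3R1 (without agomir replicate 2) and from 0.980 to -0.130 for PIK3CA (without agomir NC replicate 1). AKT1 (-0.10 to -0.053) and AKT2 (0.016, under median-ratio scaling, to 0.051, without agomir NC replicate 2) kept their direction in all 15 alternatives, as did the 10 pathway genes named for their p. Those 10 were chosen by p in these same libraries and had separate groups, so leaving out a library could not turn them. Libraries with the same number did not deviate together (r of -0.051, 0.053 and 0.039 between their departures from the group mean), so no pairing by replicate number was seen. Whether samples with the same number share a calf or a culture is not stated. Unknown depth limits what can be said of PIK3CB and other genes near 0.5 FPKM.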
